A study of Mus musculus with 42 samples.

Results

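The synaptotagmins Syt1, Syt2, Syt3, Syt4, Syt5, Syt6, Syt7, Syt9, Syt11 and Syt17 were followed across sensory ganglia of the mouse. Every probe set annotated to exactly 1 of these 10 symbols was taken. These were 12 of 12488 probe sets on the MG-U74Av2 array and 27 of 45101 on the Mouse430_2 array, and each array type held all 10 genes. Syt17 was chosen on its signal, which was higher in nodose than in dorsal root ganglion in these same data, and the others were added as its family. Its difference between the ganglia is therefore given as a description, without a test, and it is left out of every count below. Synaptotagmins beyond these 10, Syt13 among them, stand in a related list and do not enter the family counts.

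Synaptotagmins are vesicle and membrane proteins with paired C2 domains, modules that bind phospholipids and, in many members, calcium. Syt1, Syt2 and Syt9 are described as fast calcium sensors that trigger fusion of synaptic vesicles, and Syt7 is a slower sensor of high calcium affinity that serves asynchronous release, facilitation and the exocytosis of lysosomes. Syt4 and Syt11 carry a substitution in their first C2 domain and bind calcium weakly. In sensory neurons this machinery acts at the central synapse and in the release of neuropeptides from dense core vesicles.

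Neurons of the dorsal root ganglion (DRG) send afferent fibres to the spinal cord, and neurons of the nodose ganglion (NG) are the vagal afferents of the viscera. All samples came from BALB/c mice, an inbred strain, kept under standard housing, and no treatment, genotype, age or sex separates the groups in the labels. Whole ganglia (DRG n = 5, NG n = 7) and neurons collected by laser capture microdissection (DRG n = 5, NG n = 5) were hybridised to MG-U74Av2, and captured neurons (DRG n = 9, NG n = 11) also to Mouse430_2, which makes 3 experiments and 42 arrays. A captured sample was a pool of about 150 neurons, and about 12 µg of RNA was labelled for each array. The label protocol speaks of amplified RNA in the second experiment (captured, MG-U74Av2) and of total RNA elsewhere. Descriptions of the first experiment also say laser captured, against an extraction protocol that names whole ganglia, and the protocol was followed. The sources used here do not give how neurons were recognised as visceral. Separate animals are not named for the samples, and a p-value therefore covers the spread among these samples alone, which can be technical.

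The values are signal intensities in array units, scaled so that every array of a type had the same trimmed mean. Before scaling, MG-U74Av2 arrays had trimmed means of 174.8 to 408 and Mouse430_2 arrays of 84.24 to 200.5. Markers followed the labels. Of the nodose markers tested, 2 of 2, 2 of 2 and 4 of 4 were higher in NG in the first experiment, the second and the Mouse430_2 arrays, and of the DRG markers 3 of 5, 2 of 5 and 4 of 4 were lower in NG. Captured samples still carried signal of satellite glia and Schwann cells. The summed signal of 11 such genes on Mouse430_2 was 13735 to 16533 in DRG and 10898 to 13570 in NG, with 0 higher and 5 lower in NG. On the captured MG-U74Av2 arrays 10 such genes summed to 14623 to 17035 in DRG and 12432 to 13576 in NG, with 0 higher and 4 lower. The part of these differences in the results below was not tested. In whole ganglia 5 of 8 endothelial and mural markers and 3 of 7 macrophage markers were higher in NG and 0 lower in either list. On the captured MG-U74Av2 arrays 2 of 5 macrophage markers were higher in NG and 0 lower. The summed signal of 9 such genes there was 443 to 563 in DRG and 871 to 1146 in NG. On Mouse430_2 1 of 3 was higher and 0 lower, with sums of 454 to 826 and 553 to 1068. Endothelial and mural markers went both ways in captured neurons on both array types. Of 4 blood and muscle markers 2 were higher in whole NG and 0 lower, with Myl1 at 3.09 (limma adjusted p 1.13e-09), and the summed signal of 5 such genes was 432 to 763 in whole DRG and 645 to 4232 in whole NG. Myl1 was higher in captured NG too, by 1.94 on MG-U74Av2 (adjusted p 4.93e-05) and 1.63 on Mouse430_2 (2.09e-05). The part of these markers was likewise not tested. The log2 ratio of the 3′ to the 5′ Gapdh probe sets, a measure of RNA shortening, was 4.867 to 6.02 in whole ganglia. Captured neurons had higher ratios, of 6.418 to 7.408 on MG-U74Av2 and 6.139 to 7.683 on Mouse430_2. All 5 DRG and all 5 NG sample numbers of the captured MG-U74Av2 arrays occur again on Mouse430_2, where 4 DRG and 6 NG arrays carry other numbers. Whether a shared number is the same sample is not stated, so both array types are not treated as independent repeats.

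The family did not move as a block between the ganglia. Counting only probe sets bright enough to be tested and leaving out Syt17, whole ganglia had 1 synaptotagmin probe set higher in NG (Syt4) and 1 lower (Syt5) of 7 tested. Captured neurons on MG-U74Av2 had 1 higher (Syt4) and 2 lower (Syt2, Syt3) of 6 tested, and captured neurons on Mouse430_2 had 2 higher (Syt1, Syt4) and 5 lower (3 of Syt7, 1 each of Syt2 and Syt6) of 21 tested. Over all probe sets tested, the share past the same threshold was 35.4% (19.6% higher, 15.8% lower), 21.8% (10.5%, 11.3%) and 22.2% (9.72%, 12.5%) in these comparisons, by limma with Benjamini-Hochberg adjustment at 0.05. The members' own shares were 28.57%, 50% and 33.33%, from 6 to 21 probe sets tested, and are not read as particular to the family. The median log2 difference, NG minus DRG, of the members tested was -0.17 for whole ganglia, -0.36 for the captured MG-U74Av2 arrays and -0.18 for those on Mouse430_2, beside 0.05, 0.05 and -0.05 over all probe sets tested. Probe sets whose NG and DRG arrays did not overlap numbered 2 among the members tested in each comparison, and 18.1%, 16.3% and 3.84% of all probe sets tested.

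**Figure D1:**
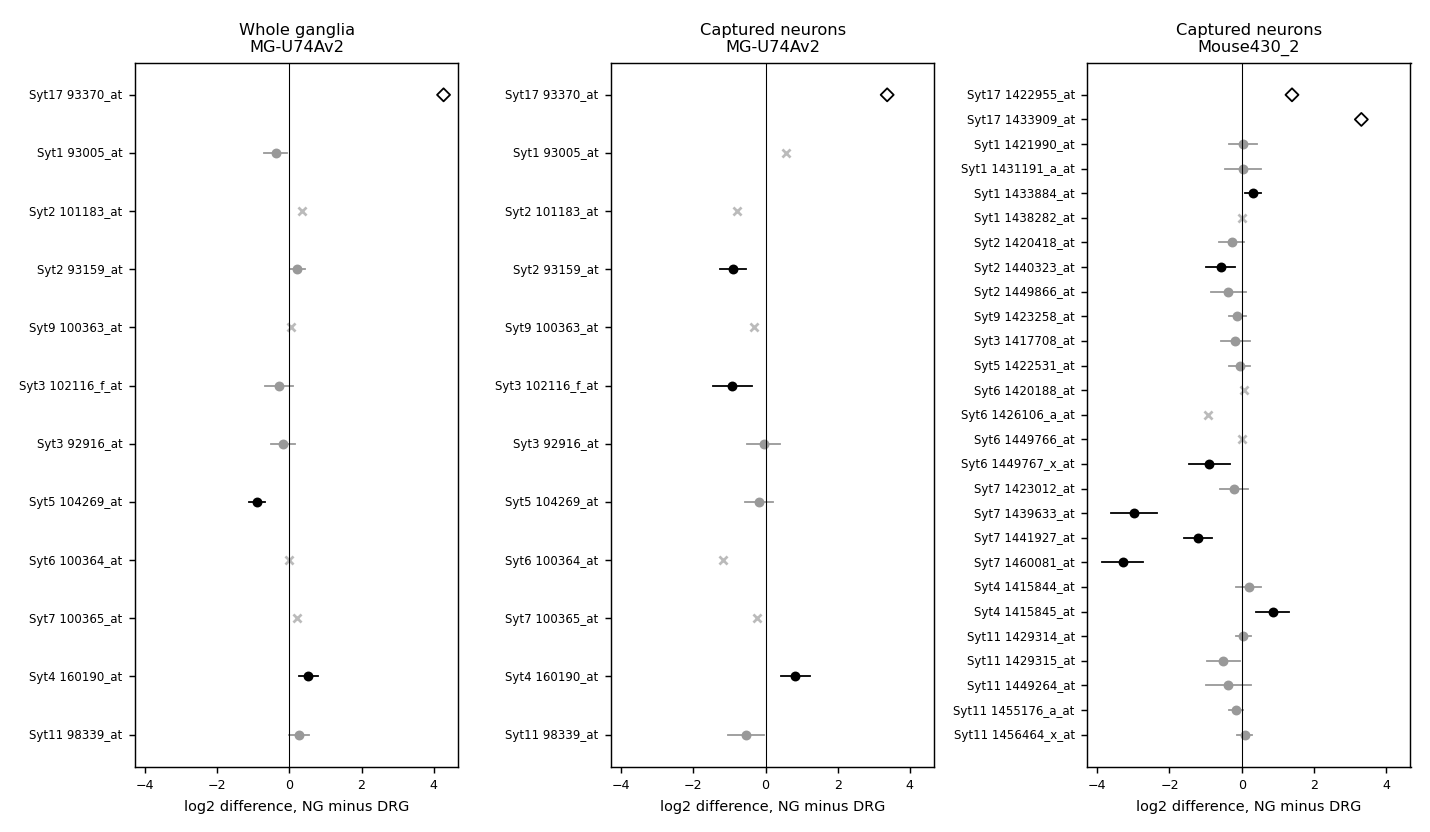
Log2 difference in scaled signal, NG minus DRG (horizontal axis), of every synaptotagmin probe set in whole ganglia (DRG n = 5, NG n = 7), captured neurons on MG-U74Av2 (n = 5 each) and captured neurons on Mouse430_2 (DRG n = 9, NG n = 11). Points with bars are tested values with 95% confidence intervals, black where the adjusted p was under 0.05, crosses were too dim to be tested and open diamonds are Syt17, which has no test; the Syt17 diamonds lie farthest to the right and 3 probe sets of Syt7 on Mouse430_2 lie farthest to the left among the black points.

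Syt17, a synaptotagmin without a membrane-spanning segment that is anchored by fatty acids, read far lower in DRG than in NG in all 3 experiments. It was dim in whole DRG, where 0 of 5 arrays read it above the 40th percentile of their own values. In whole ganglia its probe set 93370_at read 4.435, 7.578, 7.73, 8.363 and 25.1 in the 5 DRG arrays. The 7 NG arrays read from 313.5 to 519.1, with a median of 388.9. No DRG array came near any NG array, and the highest DRG value was that of array 019. On the log2 scale the difference was 4.27, or 19.3-fold on the scale of signal plus a pseudocount of 11.37, which understates the ratio of so low a signal. In whole tissue, fewer cells of a type and less RNA per cell cannot be told apart. The same probe set read 8.515, 8.643, 32.85, 45.86 and 64.39 in captured DRG neurons. Captured NG neurons read 270.9, 307.6, 349.9, 352.5 and 753.6. These groups did not overlap either, at a log2 difference of 3.37. The order of the 4 groups on this array was whole DRG (10.6 ± 8.225, SD), captured DRG (32.1 ± 24.2), whole NG (402.2 ± 84.97) and captured NG (406.9 ± 197). The range of whole NG, 313.5 to 519.1, lay within that of captured NG, 270.9 to 753.6. The 2 DRG groups overlapped only through whole DRG array 019, since the other 4 whole DRG arrays read at most 8.363 and the lowest captured DRG array 8.515. Captured minus whole, the difference between the ganglia changed by -0.90 on the log2 scale, a value with no test that stayed between -1.25 and -0.47 under the other settings tried.

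On Mouse430_2 the leading Syt17 probe set, 1433909_at, read 40.96 to 100.2 in the 9 DRG arrays, with a median of 60.25, and all 9 lay above the 40th percentile. It read 487.5 to 1038 in the 11 NG arrays, with a median of 771.4. The lowest NG array was above the highest DRG array, and the log2 difference was 3.32. The second probe set, 1422955_at, was dim, at 3.403 to 23.47 in DRG and 5.519 to 112.9 in NG, and its groups overlapped at a log2 difference of 1.395. Only 9 of 11 NG arrays and 0 of 9 DRG arrays read it above the 40th percentile of their own array. Split by sample number, the difference at 1433909_at was 2.82 among numbers shared with MG-U74Av2 and 3.84 among the others.

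Syt7 was lower in captured NG neurons than in captured DRG neurons, and it was the largest difference in the family outside Syt17. Probe set 1460081_at read 648.5, 854.7, 1049, 1086, 1107, 1158, 1195, 1310 and 1770 in the 9 DRG arrays on Mouse430_2. In the 11 NG arrays it ran from 35.17 to 298.7, with a median of 105.5. The lowest DRG array was above the highest NG array. The mean was 1131 ± 309 (SD, n = 9) in DRG and 123.7 ± 77.9 (n = 11) in NG, a log2 difference of -3.30 (SE 0.28, limma adjusted p 6.54e-10). Among probe sets tested on this array, 2.27% had all DRG arrays above all NG arrays. Probe set 1439633_at did the same, at 413 ± 122 in DRG and 56.5 ± 48.2 in NG, with a log2 difference of -2.98 (SE 0.31, adjusted p 3.96e-08). Its ranges were 282.3 to 675.2 and 8.529 to 185.9 and did not overlap. The third, 1441927_at, read 186.9 ± 43.9 in DRG and 79.2 ± 31.1 in NG, a log2 difference of -1.21 (SE 0.19, adjusted p 1.67e-05), and its groups overlapped. The fourth, 1423012_at, did not pass: it read 42.2 in DRG and 35.6 in NG on average, a log2 difference of -0.22 (adjusted p 0.473). The 4 probe sets of Syt7 thus gave unlike differences, and which transcripts each reads was not analysed here. The 3 calls were kept under each of the 32 other settings tried, and 1460081_at gave -2.88 among sample numbers shared with MG-U74Av2 and -3.74 among the others. On MG-U74Av2 the single Syt7 probe set, 100365_at, was too dim to be tested in any group, at 3.365 to 24.93 over all 22 arrays. Whole ganglia therefore give no value to set beside the Mouse430_2 difference.

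**Figure D2:**
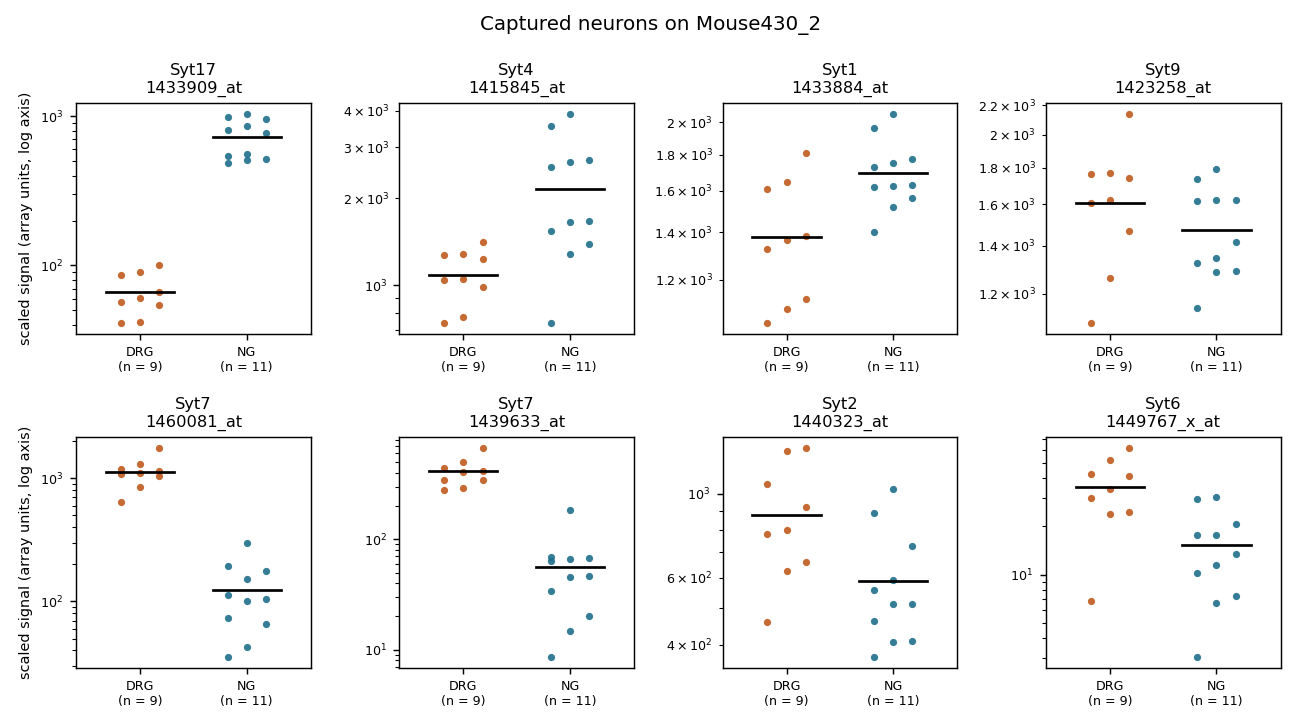
Scaled signal in array units (vertical axis, log scale) of 8 synaptotagmin probe sets in captured neurons on Mouse430_2, 1 point per array, DRG n = 9 and NG n = 11, with the group mean as a line. The NG arrays lie above every DRG array for Syt17 1433909_at and below every DRG array for Syt7 1460081_at and 1439633_at, while the groups of the other 5 overlap.

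The fast sensors differed little or not in step. Syt2, the fast sensor that prevails at many spinal and brainstem synapses, was lower in captured NG than in captured DRG neurons on MG-U74Av2. Its probe set 93159_at read 2090, 2747, 3021, 3094 and 3381 in captured DRG and 1099, 1287, 1579, 1765 and 2027 in captured NG. Every DRG array was above every NG array, with a log2 difference of -0.90 (SE 0.17, limma adjusted p 0.00161). In whole ganglia the same probe set read 1282 ± 122 in DRG and 1498 ± 180 in NG, and the difference of 0.22 did not pass (adjusted p 0.0869). On Mouse430_2 the leading Syt2 probe set, 1440323_at, was 881.2 ± 297 in DRG and 588 ± 211 in NG, a log2 difference of -0.58 (SE 0.20, adjusted p 0.0348). That call was fragile: it was lost, at adjusted p 0.0501 to 0.0845, on leaving out any 1 of 10 of the 20 arrays (DRG 003, 006, 010 and 014, NG 001, 002, 003, 010, 013 and 014). By sample number it was -0.90 (adjusted p 0.017) among numbers shared with MG-U74Av2 and -0.19 (0.703) among the others, and the difference between these values did not pass (0.37). The other Syt2 probe sets on this array gave -0.28 (1420418_at, adjusted p 0.271) and -0.36 (1449866_at, 0.307). The second on MG-U74Av2, 101183_at, was too dim to be tested.

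Syt1, the main fast sensor of forebrain synapses, was slightly higher in captured NG neurons at 1 of its 4 probe sets on Mouse430_2. Probe set 1433884_at read 1041 to 1810 in DRG and 1402 to 2055 in NG, with medians of 1365 and 1630. The groups overlapped, and the log2 difference was 0.31 (SE 0.11, limma adjusted p 0.0325). It was lost, at 0.0525 to 0.0759, without DRG array 003, 014 or 015 or NG array 010 or 014. The others, 1421990_at and 1431191_a_at, differed by 0.05 each (adjusted p 0.888 and 0.922), and 1438282_at was too dim to be tested. In whole ganglia Syt1 probe set 93005_at read 64.4 ± 13.1 in DRG and 46.6 ± 7.905 in NG, a difference of -0.38 that did not pass (adjusted p 0.0659) but did without DRG array 070 (0.042) or NG array 036 (0.0454). It was too dim to be tested between captured groups on MG-U74Av2. Syt9 was bright on Mouse430_2 and its difference did not pass: 1423258_at read 1607 ± 307 in DRG and 1472 ± 213 in NG, with a log2 difference of -0.12 (95% confidence interval -0.35 to 0.12, adjusted p 0.534). On MG-U74Av2 its probe set 100363_at stayed at 3.156 to 19.11 and was not tested.

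Syt3, Syt5 and Syt6 each passed the test as higher in DRG in 1 of the 3 experiments. Syt5, a calcium-binding synaptotagmin, was the whole-ganglion case. Probe set 104269_at read 479.4, 488.3, 534.7, 558.9 and 657.6 in the 5 whole DRG and 237.2 to 321 in the 7 whole NG, with an NG median of 286.1. The groups did not overlap, and the log2 difference was -0.90 (SE 0.11, limma adjusted p 6.04e-06). In captured neurons the difference did not pass: the same probe set gave 402.3 ± 84.4 and 356.4 ± 83.9 (-0.18, adjusted p 0.534) and 1422531_at on Mouse430_2 gave 143.4 and 138.2 (-0.06, 95% interval -0.35 to 0.23, adjusted p 0.83).

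Syt3, a plasma membrane synaptotagmin that takes part in receptor endocytosis, had conflicting probe sets. On MG-U74Av2, 102116_f_at read 95.57, 105.3, 126.6, 148.1 and 196.1 in captured DRG and 42.93, 53.88, 54.86, 60.8 and 129.4 in captured NG, a log2 difference of -0.92 (SE 0.26, limma adjusted p 0.0196). NG array 003 overlapped the DRG arrays, and without DRG array 008 the call was lost (-0.78, adjusted p 0.0547). The leading Syt3 probe set, 92916_at, read 243.7 and 246.2 in the same groups, a difference of -0.05 (adjusted p 0.896). The suffix of 102116_f_at marks a probe set that can match related sequences, so its reading is the less certain. In whole ganglia the differences were -0.30 and -0.17 (adjusted p 0.231 and 0.416), and 1417708_at on Mouse430_2 gave -0.18 (adjusted p 0.579).

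Syt6, a relative of Syt3 known from the sperm acrosome, was low and measurable mainly in captured DRG neurons. On MG-U74Av2 probe set 100364_at read 12.88, 24.62, 29.21, 46.27 and 47.75 in captured DRG and 5.516 to 8.604 in captured NG. The captured groups did not overlap, but only 2 arrays read it above the 40th percentile and it was not tested. Both whole-ganglion groups lay between 4.594 and 9.863. On Mouse430_2, 1449767_x_at read 35.3 ± 16.4 in DRG and 15.3 ± 9.00 in NG, a log2 difference of -0.89 (SE 0.27, limma adjusted p 0.0179). It entered the test through 7 DRG and 3 NG arrays above the 40th percentile, and its suffix marks probes that can match other genes. Of the other probe sets of Syt6, 1426106_a_at read 29.9 in DRG and 12.6 in NG on average, and 1420188_at and 1449766_at lay between 1.752 and 35.11. None of these 3 was tested.

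At their leading probe sets Syt2 and Syt6 both read lower in captured NG than in captured DRG on both array types. The leading probe sets of Syt3, Syt5, Syt7 and Syt9 also gave negative log2 differences on both. The shared direction is therefore not particular to Syt2 and Syt6. For Syt6, Syt7 and Syt9 the MG-U74Av2 value was not tested. The dim Syt6 probe sets 1420188_at and 1449766_at on Mouse430_2, also not tested, gave log2 differences of 0.078 and 0.004. The RefSeq table for build GRCm38.p6 held start sites for both genes. The windows from 250 bases before to 50 bases after the start are shown for these members as examples. Syt3 and Syt9 had windows too, which are not shown. The Syt9 window held 3 GC boxes at 79.3% GC, and the Syt3 window held 0 GC boxes at 66.3% GC. The first Syt2 window is chr1:134646362-134646661, the second Syt2 window chr1:134709050-134709349 and the first of 3 Syt6 windows chr3:103574995-103575294, all on the plus strand.
Syt2 start 1: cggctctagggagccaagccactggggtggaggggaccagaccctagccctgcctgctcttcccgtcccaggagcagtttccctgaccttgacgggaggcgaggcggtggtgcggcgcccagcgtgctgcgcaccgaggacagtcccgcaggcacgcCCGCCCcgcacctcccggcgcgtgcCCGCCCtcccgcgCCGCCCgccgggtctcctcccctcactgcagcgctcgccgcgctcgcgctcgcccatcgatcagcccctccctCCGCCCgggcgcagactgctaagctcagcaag
Syt2 start 2: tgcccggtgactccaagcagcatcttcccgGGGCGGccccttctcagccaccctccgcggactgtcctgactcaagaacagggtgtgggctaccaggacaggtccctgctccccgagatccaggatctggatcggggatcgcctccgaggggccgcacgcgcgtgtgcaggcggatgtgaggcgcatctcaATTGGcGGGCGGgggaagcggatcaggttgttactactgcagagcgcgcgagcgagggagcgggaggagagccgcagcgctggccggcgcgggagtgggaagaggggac
Syt6 start 1: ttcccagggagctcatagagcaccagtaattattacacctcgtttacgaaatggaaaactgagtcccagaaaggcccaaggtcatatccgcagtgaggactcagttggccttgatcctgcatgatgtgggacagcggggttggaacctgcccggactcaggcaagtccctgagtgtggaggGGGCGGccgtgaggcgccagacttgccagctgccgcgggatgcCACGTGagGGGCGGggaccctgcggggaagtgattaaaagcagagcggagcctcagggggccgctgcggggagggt
Capitals mark exact matches on either strand. The GC box was searched for as GGGCGG. The cAMP response element was searched for as TGACGTCA, and the E box was searched for as CACGTG on both strands. The CCAAT box was searched for by those letters and the TATA box as TATAAA. The first Syt2 window held 4 GC boxes and the second held 2 GC boxes and 1 CCAAT box, and the Syt6 window held 2 GC boxes and 1 E box. None of these matches overlapped another. Of 32851 windows of the same length in the table, 35.7% held a GC box, 37.4% a CCAAT box, 7.15% the E box, 1.79% the cAMP response element and 13.6% the TATA box. GC made up 74.3%, 68.3% and 61% of the windows in the order shown. The arrays do not tell which start a transcript used, and a match is a description of these letters. Of the 10 members, 6 had a window among those taken here. For members, windows on 1 chromosome were not taken, a limit that the 32851 windows did not have.

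Syt4, found on dense core vesicles and induced by activity in many neurons, was higher in NG at its leading probe set in all 3 experiments. On Mouse430_2 that difference was 1.73 among sample numbers shared with MG-U74Av2 and 0.04 among the others. In whole ganglia 160190_at read 338.7, 378.3, 389.5, 437.1 and 505.6 in DRG and 509.8 to 800.3 in NG, with an NG median of 543.7. The lowest NG array was just above the highest DRG array, and the log2 difference was 0.53 (SE 0.13, limma adjusted p 0.00401). Captured DRG neurons read 60.78, 86.32, 95.33, 130.3 and 135.5 and captured NG neurons 165.7, 177.4, 186.5, 191.8 and 195.1 on the same probe set. Again the groups did not overlap, and the log2 difference was 0.83 (SE 0.19, adjusted p 0.00642). Once the Gapdh ratio entered as a covariate, this captured difference was 0.63 and did not pass (adjusted p 0.0561), and without scaling the whole-ganglion difference was 0.16 (adjusted p 0.662).

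On Mouse430_2 the Syt4 excess depended on the sample numbers. The leading probe set, 1415845_at, read 737.3 to 1413 in DRG and 738.1 to 3908 in NG, with medians of 1052 and 1668, and the log2 difference over all arrays was 0.86 (SE 0.22, limma adjusted p 0.00572). Among sample numbers shared with MG-U74Av2 the 5 NG arrays read 2555 to 3908 and the 5 DRG arrays 737.3 to 1052, a difference of 1.73 (SE 0.18, adjusted p 1.75e-07). Among the others the 6 NG arrays read 738.1 to 1668 and the 4 DRG arrays 1230 to 1413, a difference of 0.04 (SE 0.19, adjusted p 0.929). Over all probe sets 15.1% passed among shared numbers and 18.1% among the others. The difference of these differences, others minus shared, was -1.69 (SE 0.26, adjusted p 0.000881), a contrast that 2.43% of all probe sets tested passed. The Gapdh ratio was 6.6 to 7.51 in the NG arrays with shared numbers and 6.14 to 6.59 in the other NG arrays, and 6.54 to 6.96 and 6.32 to 7.68 in the matching DRG arrays. With that ratio as a covariate the difference over all arrays was 0.99 (adjusted p 0.000666). That fit did not hold the split by number. In NG the ranges of the ratio did not overlap between the sets, so the ratio and the split cannot be told apart there. The second Syt4 probe set, 1415844_at, gave 0.20 over all arrays (adjusted p 0.449). This split by number was made after the values had been seen.

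Syt11, the close relative of Syt4 that limits endocytosis, was not called in any of the 3 comparisons. Its 5 probe sets on Mouse430_2 gave log2 differences from -0.51 to 0.08, with limma adjusted p from 0.105 to 0.797. The leading one, 1456464_x_at, read 5131 in DRG and 5386 in NG on average, with a 95% interval of the log2 difference from -0.13 to 0.29. Its suffix, too, marks probes that can match other genes. One Syt11 probe set, 1429315_at, changed with the sample numbers: NG minus DRG was 0.35 (SE 0.18, adjusted p 0.208) among shared numbers, at 483.7 to 752.8 in NG and 401.9 to 589.4 in DRG. It was -1.45 (SE 0.18, adjusted p 2.02e-06) among the others, at 333.1 to 512.6 in NG and 870.9 to 1372 in DRG, without overlap. The difference of these differences was -1.80 (SE 0.25, adjusted p 0.000579). A further Syt11 probe set, 1455176_a_at, gave 0.08 among shared numbers (adjusted p 0.748) and -0.42 among the others (0.0176), but the difference between these values did not pass (0.134). On MG-U74Av2 98339_at gave 0.27 in whole ganglia (adjusted p 0.129) and -0.54 in captured neurons (adjusted p 0.12).

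**Figure D3:**
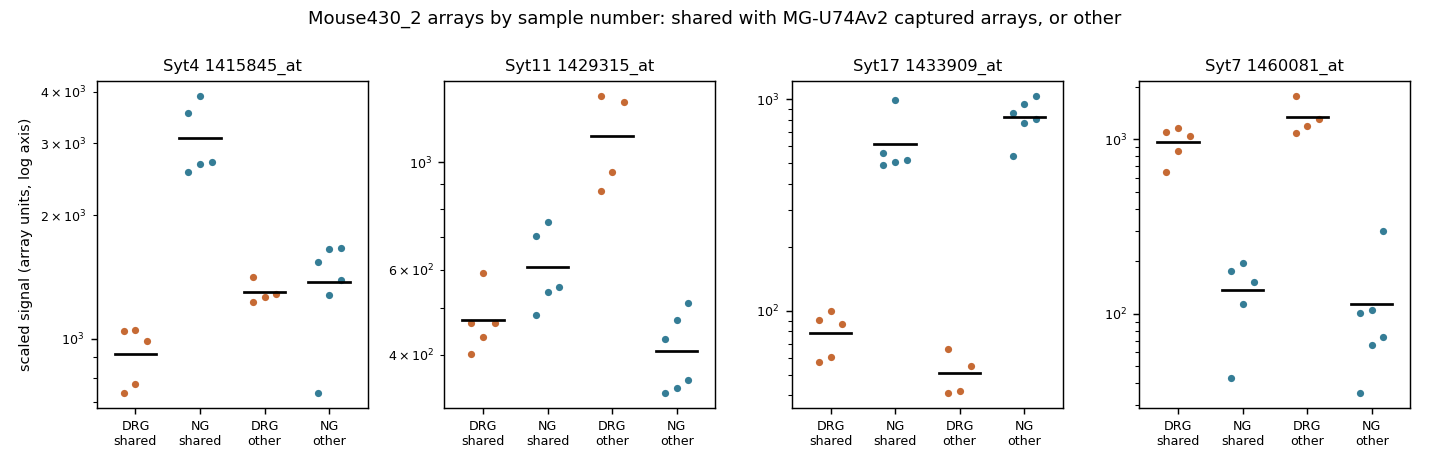
Scaled signal in array units (vertical axis, log scale) of 4 probe sets on Mouse430_2, split by whether a sample's number also occurs on the captured MG-U74Av2 arrays (shared, DRG n = 5, NG n = 5) or not (other, DRG n = 4, NG n = 6), with group means as lines. Syt4 1415845_at is high in NG with shared numbers, at 2555 to 3908, and Syt11 1429315_at is high in DRG with other numbers, at 870.9 to 1372, while Syt17 and Syt7 keep their order in both sets.

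Captured neurons were set against whole ganglia on MG-U74Av2, the array type that holds both. Capture, amplification and experiment cannot be told apart in this comparison, and satellite glia and Schwann markers moved with it, with 5 of 10 lower and 2 higher (Apoe and Glul) in captured DRG and 8 of 10 lower and 1 higher (Glul) in captured NG. Of 8 endothelial and mural markers 3 were lower and 0 higher in captured DRG, and 5 lower and 1 higher in captured NG. Sensory neuron markers went both ways: of 9, 4 were higher and 3 lower in captured DRG, and 5 higher and 4 lower in captured NG. The part of these markers in the results was not tested. Of the 7 synaptotagmin probe sets tested, 4 were lower and 2 higher in captured than in whole DRG, and 2 were lower and 0 higher in captured than in whole NG, beside 47.2% (22.9% higher, 24.3% lower) and 55.3% (26.2% higher, 29.2% lower) of all probe sets. These counts include Syt1 93005_at, which passed the filter through whole ganglia, where it is brighter, and was too dim to be tested among captured arrays. Without it 3 were lower and 2 higher of 6 in DRG and 2 lower and 0 higher in NG. Syt4 was lower in both, by log2 differences of -1.93 in DRG (SE 0.17, limma adjusted p 8.89e-10) and -1.63 in NG (SE 0.15, adjusted p 1.91e-09). Syt11 was lower in both as well, by -0.94 in DRG (SE 0.19, adjusted p 0.000209) and -1.75 in NG (SE 0.17, adjusted p 5.45e-09). Its 5 captured NG arrays read 20.07 to 64.8 and its 7 whole NG 135.4 to 238. Syt2 93159_at was higher in captured than in whole DRG, by 1.14 (SE 0.14, adjusted p 3.51e-07), and in NG captured neurons read 1551 and whole ganglia 1498 (0.03, adjusted p 0.885). Syt1 93005_at read 64.4 ± 13.1 in whole and 19.8 ± 13.3 in captured DRG, and 46.6 ± 7.905 in whole and 31.3 ± 5.379 in captured NG. Only 0 of 5 captured DRG and 1 of 5 captured NG arrays read it above the 40th percentile, so these are values with no test. Syt5 was lower in captured DRG by -0.44 (adjusted p 0.0198), a call lost without whole DRG array 070 or captured DRG array 010 or 014 (0.0619 to 0.0668). In NG Syt5 gave 0.28 (0.094), which passed without captured NG array 010 (0.0231). Syt3 102116_f_at was higher in captured DRG by 0.58 (adjusted p 0.0454), and that call was lost, at 0.0506 to 0.146, without any 1 of the 5 whole DRG arrays, captured DRG array 008, 010 or 014, or whole NG array 023. The leading Syt3 probe set, 92916_at, gave 0.12 in DRG (0.649) and 0.24 in NG (0.273), the latter passing without captured NG array 010 (0.0459). With the Gapdh ratio as a covariate, which differs between whole and captured samples, 2 of the 6 DRG calls were left.

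The difference between the ganglia was another in captured neurons than in whole ganglia for 3 of the 6 probe sets tested without Syt1, 1 moving up and 2 down, beside 18.2% of all probe sets (7.71% higher, 10.5% lower). For Syt2 93159_at the NG minus DRG value moved by -1.12 (SE 0.19, limma adjusted p 0.000193) from whole to captured. For Syt5 it moved by 0.72 (SE 0.21, adjusted p 0.0156), from -0.90 in whole ganglia to -0.18, which did not pass, in captured neurons. For Syt11 it moved by -0.81 (SE 0.26, adjusted p 0.0279), which did not pass with the same median on every array (0.0709), quantile normalization (0.0572) or the Gapdh covariate (0.056). For Syt4 the change was 0.31 (95% confidence interval -0.16 to 0.77) and did not pass (adjusted p 0.384). Syt3 did not pass at either probe set (adjusted p 0.195 and 0.798), although 102116_f_at did without captured NG array 003 (0.0408).

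**Figure D4:**
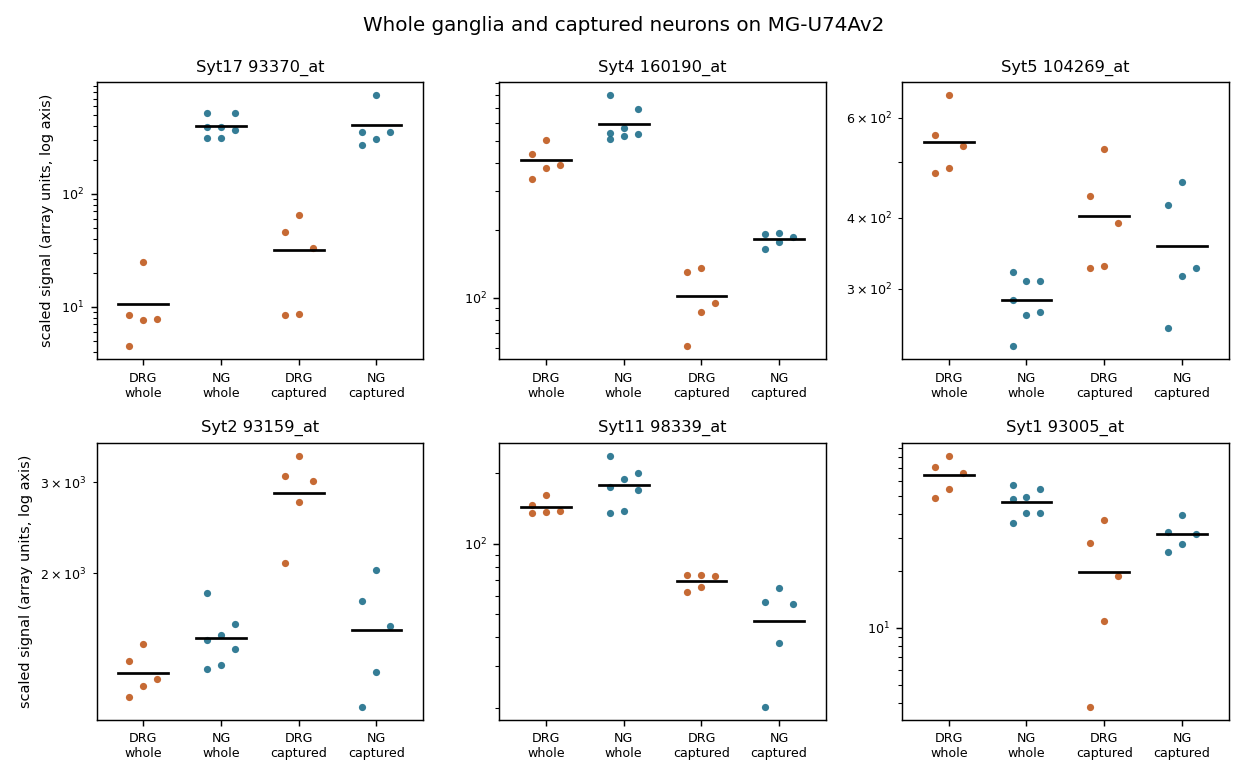
Scaled signal in array units (vertical axis, log scale) of 6 synaptotagmin probe sets on MG-U74Av2 in whole DRG (n = 5), whole NG (n = 7), captured DRG (n = 5) and captured NG (n = 5), 1 point per array, with group means as lines. Syt2 is higher in captured DRG, at 2090 to 3381, than in the other 3 groups, Syt4 and Syt11 are lower in captured than in whole samples of both ganglia, and Syt17 is higher in both NG groups.

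Among the genes outside the family whose signal followed Syt17 most closely, Ltk was found on both array types. Over the 22 MG-U74Av2 arrays the 5 highest Pearson correlations of log2 signal with 93370_at among 8309 probe sets were those of Crhr2, a receptor of the urocortins (0.967), Ltk, a receptor tyrosine kinase (0.96), Ddc, an enzyme of monoamine synthesis (0.954), Htr3a, a subunit of the serotonin-gated channel (0.94), and Hdac5, a histone deacetylase (0.931). Over the 20 Mouse430_2 arrays they were Fhod3, an actin-organising formin (0.978), Ltk (0.976), Chst7, a sulfotransferase (0.973), Cfap52 (0.972) and Grp, the peptide gastrin-releasing peptide (0.969), with 1433909_at among 28107 probe sets. Arrays share ganglion and scaling, so these values mostly restate the difference between NG and DRG and carry no p. Within the family Syt7 1460081_at ran opposite to Syt17 on Mouse430_2 (-0.893), and the other Syt17 probe set followed it at 0.685.

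Genes of vesicle fusion and secretion other than the members followed here were called in both directions between the ganglia. These lists were drawn up with earlier results of these data known. Each listed gene was read by 1 probe set, that with the highest mean log2 signal among those tested. The shares set beside the lists cover all probe sets tested, so they are not on a like basis. Of other proteins with C2 domains at membranes, 12 of 18 were tested on Mouse430_2 and 2 were higher and 2 lower in NG (33.3%, beside 22.2% of all probe sets). The higher ones were Syt13, an atypical synaptotagmin (1.28, SE 0.25, limma adjusted p 0.000312), and Esyt1, a tether between endoplasmic reticulum and plasma membrane (1.0, adjusted p 1.19e-06). The lower ones were Sytl2, a Rab27 effector (-2.60, adjusted p 2.79e-11), and Rph3a, a Rab3 effector (-1.77, adjusted p 8.96e-08). On MG-U74Av2 only 2 of them were bright enough: Esyt1 was higher in captured NG (0.65, adjusted p 0.0013), and Esyt3 was lower in whole NG (-0.63, adjusted p 0.00226) and in captured NG (-1.06, adjusted p 0.0448). The captured Esyt3 call was lost without any 1 of 7 of the 10 arrays (DRG 003, 006, 008 and 014, NG 007, 008 and 014), at 0.0574 to 0.107.

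Of 41 genes of the SNARE fusion machinery tested on Mouse430_2, 9 were higher and 9 lower in NG (43.9%, beside 22.2% of all probe sets). The vesicle glycoproteins of the SV2 family were divided: Sv2c (1.35, limma adjusted p 0.000441) and Sv2a (0.74, adjusted p 0.000962) were higher and Sv2b (-2.77, adjusted p 2.61e-11) was lower. Rab27b, a GTPase of secretory vesicles (-1.84, adjusted p 4.8e-05), and Cplx2, a complexin that clamps SNARE complexes (-1.72, adjusted p 3.63e-06), were lower, and Rabac1, a Rab acceptor, was higher (0.80, adjusted p 0.00303). Among sample numbers not shared with MG-U74Av2, Sv2a, Sv2c, Rabac1 and Rab27b did not pass (adjusted p 0.25, 0.122, 0.298 and 0.0742). In whole ganglia 7 of 28 were higher and 3 lower (35.7%, near the 35.4% of all probe sets), with Ap2m1, a subunit of the clathrin adaptor (1.13, adjusted p 2.46e-07), Rabac1 (0.80, adjusted p 3.03e-05) and Stxbp2, a syntaxin-binding protein (0.54, adjusted p 0.0084), higher. Nsf, the ATPase that takes SNARE complexes apart (-1.60, adjusted p 2.19e-07), Vamp2, the main vesicle SNARE (-0.73, adjusted p 2.37e-05), and Stx12, an endosomal syntaxin (-0.45, adjusted p 0.00633), were lower. In captured neurons on MG-U74Av2 4 of 25 were higher and 1 lower (20%, near the 21.8% of all probe sets): Napb (0.81, adjusted p 0.0021), Stxbp2 (0.71, adjusted p 0.0245) and Rabac1 (0.67, adjusted p 0.00736) led the higher ones and Napa was lower (-0.71, adjusted p 0.00522), Napa and Napb being sister adaptors of Nsf. The Stxbp2 call was lost without DRG array 008 or 010 or NG array 003 or 007 (0.0538 to 0.0616).

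Of 24 genes of dense core vesicle cargo and biogenesis tested on Mouse430_2, 5 were higher and 8 lower in NG (54.2%, beside 22.2% of all probe sets). The peptides Grp (5.26, limma adjusted p 2.14e-13) and Vip (2.72, adjusted p 7.75e-09) and the convertase inhibitor Pcsk1n (0.90, adjusted p 0.000336) led the higher ones, and Pcsk1n did not pass among the sample numbers shared with MG-U74Av2 (0.182). The peptide genes Tac1, which encodes substance P (-2.49, adjusted p 5.87e-07), Adcyap1 (-2.12, adjusted p 2.44e-11) and Nmb (-1.85, adjusted p 3.4e-10) led the lower ones. The same 3 led in captured neurons on MG-U74Av2, where 2 of 16 were higher and 6 lower (50%, beside 21.8%): Tac1 gave -4.03 (adjusted p 2.34e-05), Nmb -1.64 (7.48e-06) and Adcyap1 -1.28 (5.29e-05). There Pcsk1, a prohormone convertase (0.70, adjusted p 0.013), and Chga, a granin (0.46, adjusted p 0.0326), were higher, and the Chga call was lost without DRG array 006, 008 or 010 or NG array 007, 008 or 010 (0.0527 to 0.0829). In whole ganglia 8 of 16 were higher and 6 lower (87.5%, beside 35.4%), with Pcsk1 (1.92, adjusted p 4.88e-09), Pam, a peptide-amidating enzyme (1.71, adjusted p 0.00852), and the neurotrophin Bdnf (0.79, adjusted p 0.000406) higher. Scg3, a granin-binding protein of the granule membrane (-1.49, adjusted p 3.18e-08), Nmb (-1.47, adjusted p 1.05e-08) and Tac1 (-1.12, adjusted p 0.00027) were lower.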

How the data were processed

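Per the submitters' processing notes the authors used MAS5, of a version the sources used here do not give, and deposited a linear signal intensity for each probe set. Presence calls were not used here, and some low signals can be background. Each array was scaled to 1 mean per array type after trimming 2% at each end (252.8 on MG-U74Av2, 141.2 on Mouse430_2), and log2(signal + pseudocount) was taken, with the 20th percentile of all values as the pseudocount (11.37 and 7.477). Control probe sets (66 and 64) were left out. To be tested, a probe set had to exceed the 40th percentile of the array in a number of arrays no smaller than the smaller group (5 of 22 in the fit of 4 groups). Differences were tested two-sided on all such probe sets with limma 3.58.1 in R 4.3.3 (trend, robust), with Benjamini-Hochberg adjustment at 0.05. The fit was checked on simulated data.

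Fold changes are on the scale of signal plus pseudocount and understate those of dim probe sets. Precision is limited by the number of arrays. Gene names came from the platform annotation, and promoter windows were taken by gene symbol. The members, gene lists and tests were chosen with earlier results of these data known, and Syt17 for its difference. All member probe sets are reported, up to 3 genes per direction and list with the largest called difference, and the 5 genes most correlated with Syt17. The leading probe set of a gene has the highest mean log2 signal. Alternatives were other scalings, pseudocounts 0.25 and 4 times as large, no filter, array weights, the Gapdh ratio as a covariate, blocks and leaving out each array. A split by sample number was added after the values had been seen.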

Additional observations from a re-analysis of the deposited data

Results flagged for a closer look

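Each member probe set was checked in each group of 4 to 10 arrays. Of these 75 combinations, 3 had 1 array set apart from the others of its group, where chance gives about 1 in 20. The NG group on Mouse430_2, with 11 arrays, was too large for this check and was not included. The Syt6 probe set 1449767_x_at read 6.827 in captured DRG array 003 on Mouse430_2, and the next lowest of the 9 arrays read 23.91. The Syt17 probe set 93370_at read 25.1 in whole DRG array 019, above the next value of 8.363, and 753.6 in captured NG array 003, above the next value of 352.5.

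Several differences between NG and DRG were not the same in 2 kinds of sample. From whole ganglia to captured neurons, NG minus DRG moved by -1.116 for Syt2, 0.718 for Syt5 and -0.81 for Syt11 on the log2 scale (limma adjusted p 0.000193, 0.0156 and 0.0279). Between sample numbers shared with MG-U74Av2 and the other numbers on Mouse430_2, it moved by -1.693 for Syt4 1415845_at and -1.801 for Syt11 1429315_at (limma adjusted p 0.000881 and 0.000579).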

How the results depend on the processing

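Of 55 tested values of members other than Syt17, 33 kept their side of the threshold under every setting run for them, of which 20 also kept their direction and 13, none of them called, did not, and 22 changed their call under at least 1, of which 11 did so on leaving out 1 array. The number of called synaptotagmin probe sets went from 2 to 4 with array weights in whole ganglia, from 2 to 4 with the same median on every array for captured against whole NG, from 6 to 2 (captured against whole DRG) and from 4 to 2 (difference of the ganglion differences) with the Gapdh ratio as a covariate, and from 7 to 4 on Mouse430_2 with only the sample numbers absent from MG-U74Av2. The cause was not tested for any of these. In the last setting both the arrays were fewer and values differed, at 0.04 for Syt4 1415845_at and -0.19 for Syt2 1440323_at. The counts of captured against whole samples include the dim Syt1 93005_at. Leaving out 1 array gave 2 to 4 calls for captured against whole NG, with 4 without captured NG array 010. The Syt17 difference ran from 2.99 to 5.05 in whole ganglia over pseudocounts 4 and 0.25 times the main one. Sample number as a random replicate block gave 3 calls on MG-U74Av2 and 7 on Mouse430_2 among captured synaptotagmins, and 1618 and 6384 over all probe sets, against 1654 and 6250 without it, and changed no member's call. Same-numbered samples did not deviate together: their correlations were -0.106 to 0.112 over 4 pairs and -0.154 to 0.155 over 7. In 1 and 2 of these pairs the NG array was the best match of the DRG array among the NG arrays. Whole ganglia shared 1 number, so no paired analysis was possible there. The same median on every array moved the share of higher calls over all probe sets from 55.3% to 40% in whole ganglia, 43.7% to 63.5% on Mouse430_2, 47.3% to 60.9% for captured against whole NG and 42.4% to 59.9% for the difference of differences. No scaling gave 11.8%, 24.4% and, in captured neurons on MG-U74Av2, 35.4% against 48%. The median over all probe sets moved from 0.05 to -0.05, -0.05 to 0.09, 0.02 to 0.17 and -0.02 to 0.10 with the same median, and to -0.29 in whole ganglia and -0.17 on Mouse430_2 without scaling. Dim signals limit Syt6, Syt9 and Syt7 on MG-U74Av2.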
